A study of Mus musculus with 16 samples.

Results

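Intronic NONCODE transcripts are stretches of RNA that the NONCODE catalogue of non-coding RNA lists inside introns of protein-coding genes. A transcript was counted as a member when it carried a NONCODE identifier, was listed as 1 unbroken interval (width within 1 base of its length), overlapped a protein-coding gene of GENCODE M21 and had no base in an exon of any such gene. It also had to reach 1 FPKM (reads divided by transcript length and by sequencing depth) in at least 4 of the 16 libraries. Of 8114 such transcripts listed at any level, 2379 (29.3%) passed that level and 5735 did not. The 2379 members made up 32.1% of the 7413 features tested (transcripts, with Ensembl transcripts summed by gene) and lay in 1257 host genes. Members were thus chosen on their level, so levels are given as a description. The diet labels played no part in the choice.

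RNA came from livers of C57BL/6J mice, 1 library per mouse, with 4 mice in each of 4 groups. One group ate ordinary feed and a second a high-fat feed. The other two ate the high-fat feed and were also given either resveratrol (a plant polyphenol) at 100 mg/kg per day or metformin (a drug that lowers blood glucose) at 200 mg/kg per day, both by gavage. The labels name no vehicle gavage, all mice were of the same strain, and the age label of all 4 groups is postnatal day 21, without saying whether that is the age at collection. All 4 high-fat titles begin with the same code while each other group holds more than 1 code. What that code marks is unknown here and, if it is a litter or cage, it and the high-fat diet cannot be told apart. Nothing states that libraries of a group are independent beyond 1 per mouse, and p-values measure the spread between these libraries.

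An intron is transcribed with its gene, cut out during splicing and usually degraded quickly, so intronic reads in total RNA can come from unspliced precursor RNA, from retained introns, or from separate RNAs that start within the intron. Many NONCODE entries of this kind rest on single sequenced fragments and have no spliced structure. The deposited tables give no strand for them, so reads of a member and of the surrounding gene's precursor RNA cannot be told apart, and a host gene's symbol below states a position and not that gene's level. In bulk liver, fewer cells of a type and less RNA per cell cannot be told apart either. Coding genes are not listed. Of 9 hepatocyte markers 2 (Ttr and Cps1) had a listed feature, at a mean of 0.0989 and 0.1002 FPKM, so the liver label was not checked through them, and none of 28 markers of other liver cells was a host gene.

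The sequences below are stretches of 5 members on which results turn, read where a GENCODE M21 non-coding transcript or a RefSeq promoter window (GRCm38.p6) covers them, because the intronic genome sequence was not used here. They are printed 5′ to 3′ on the strand of that reference, in lower case. The members in Fam13a, Rbfox2, Nfia and Slc16a10 were lower on high-fat feed, and the member in Bach2 was higher. The Fam13a stretch belongs to a transcript annotated antisense to the host (BB365896), the Bach2 stretch to a sense intronic transcript (Bach2it1), and the Slc16a10 stretch is an annotated small nucleolar RNA (Gm25613). For Rbfox2 the whole member is covered by the single-exon Gm49411, and in Nfia the stretch is the promoter window of the non-coding gene Gm19417.
Fam13a NONMMUT057179.2, chr6:58999469-58999768, + strand: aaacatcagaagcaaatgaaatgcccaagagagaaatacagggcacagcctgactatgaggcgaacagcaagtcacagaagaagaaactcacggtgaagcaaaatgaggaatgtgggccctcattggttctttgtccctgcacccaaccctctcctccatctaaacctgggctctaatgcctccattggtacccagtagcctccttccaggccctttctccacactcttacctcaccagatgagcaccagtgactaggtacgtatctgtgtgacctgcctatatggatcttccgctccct
Bach2 NONMMUT046576.2, chr4:32252223-32252321, + strand: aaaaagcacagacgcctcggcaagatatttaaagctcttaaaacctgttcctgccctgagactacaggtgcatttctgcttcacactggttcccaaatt
Rbfox2 NONMMUT024077.2, chr15:77177965-77178264, - strand: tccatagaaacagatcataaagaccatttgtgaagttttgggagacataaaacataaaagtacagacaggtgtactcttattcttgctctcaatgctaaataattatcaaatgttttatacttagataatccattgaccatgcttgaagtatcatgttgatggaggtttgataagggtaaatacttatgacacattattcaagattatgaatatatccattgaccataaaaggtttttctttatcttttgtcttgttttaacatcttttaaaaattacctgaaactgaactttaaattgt
Nfia NONMMUT048227.2, chr4:97868960-97869259, - strand: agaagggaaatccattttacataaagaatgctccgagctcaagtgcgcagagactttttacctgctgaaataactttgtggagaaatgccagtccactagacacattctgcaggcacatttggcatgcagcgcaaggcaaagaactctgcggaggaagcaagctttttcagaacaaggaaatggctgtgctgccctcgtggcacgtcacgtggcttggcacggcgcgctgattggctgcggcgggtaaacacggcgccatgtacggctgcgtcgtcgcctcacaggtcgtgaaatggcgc
Slc16a10 NONMMUT005347.2, chr10:40109462-40109590, + strand: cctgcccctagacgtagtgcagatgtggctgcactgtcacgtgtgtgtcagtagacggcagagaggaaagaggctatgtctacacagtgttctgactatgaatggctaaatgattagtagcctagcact
None of these stretches holds the polyadenylation hexamer AATAAA on either strand, so no part is in capitals. Among 75 members with a reference stretch of at least 300 bases, 22 (29.3%) hold the hexamer on either strand within the first 300, and among 32851 RefSeq promoter windows of 300 bases 19.6% do. GC content ran from 28.7% in the Rbfox2 stretch to 53.7% in that of Nfia. The antisense and sense annotations matter for reading the values, because without strand the reads of BB365896 and of unspliced Fam13a RNA fall on the same member.

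The members were of moderate length and low level. Their median length was 1947 bases (203 to 12247), and the median of their mean FPKM over the 16 libraries was 1.47 (10th to 90th percentile 0.922 to 3.51), with 28 members at a mean of 10 FPKM or more. A member had a median of 64 reads in a library (10th to 90th percentile 20 to 187). Counting error alone is therefore appreciable for single members. At the edge of the selection, the 106 members that reached 1 FPKM in exactly 4 libraries had a median mean of 0.854 FPKM, and the 151 transcripts just outside, with exactly 3 libraries, 0.798. In only 3 of the 106 were all 4 libraries of the same group, and 844 members reached 1 FPKM in all 16 libraries.

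Within their host genes the members lay far from exons. The median distance to the nearest exon of the host was 4242 bases, 79 members were within 100 bases of one, and 21.8% lay in the first intron (exons of all transcripts merged), against 24.4% of the transcripts that did not pass. Their introns had a median length of 24261 bases, against 34492 for those that did not pass. The middle of a member lay at a median of 37.1% of the host from its 5′ end, against 42.8%. Most hosts (801) held 1 member, while 76 hosts with at least 5 held 638. Some members share sequence with other annotations. Exons of non-coding GENCODE genes overlapped 114 members, of which 38 overlapped genes of the TEC biotype, 23 antisense genes, 16 processed pseudogenes, 6 microRNA genes and 3 small nucleolar RNA genes. Further, 59 pairs of members overlapped each other. A RefSeq promoter window overlapped 25 members, and in 4 of them the window was that of the host gene itself.

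Summed over the members, the mean level was lowest on high-fat feed alone, with overlap between groups, and without high-fat library 4 it was lowest with metformin. The sums were 5088, 5698, 5347.0 and 5748 FPKM with ordinary feed and 5148, 4331, 5006 and 3469 on high fat. With resveratrol they were 5061, 5209, 5294 and 5134, and with metformin 5042, 5313, 4128 and 4103. The highest high-fat library thus lay above the lowest ordinary-feed library, the resveratrol libraries lay close together, and the metformin libraries fell into a higher and a lower pair. High-fat library 4 stood apart from the other 15 libraries: 1139 of the members reached 1 FPKM in it, against 1559 to 2107 elsewhere, and its median-ratio size factor was 0.691, against 0.885 to 1.15 for the rest. The mean sum was 5470 ± 311 FPKM with ordinary feed and 4489 ± 767 on high fat (SD, n = 4 each), or 4828 ± 436 for the 3 other high-fat libraries. Resveratrol gave 5175 ± 100.0 and metformin 4646 ± 623.

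**Figure D1:**
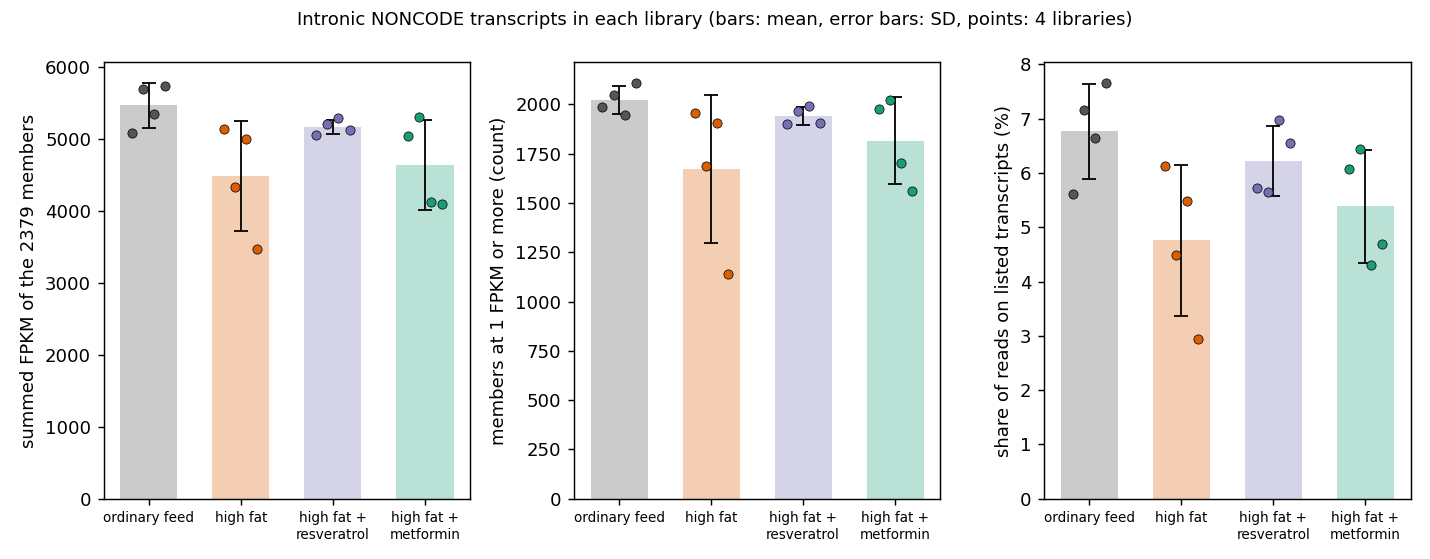
Level of the 2379 members in each library by group (bars, mean; error bars, SD; points, the 4 libraries): summed FPKM on the left, the count of members at 1 FPKM or more in the middle and their share of reads on listed transcripts (percent) on the right. High-fat library 4 is the lowest point in all 3 panels, at 3469 FPKM, 1139 members and 2.94%, and the high-fat bars overlap those of the other groups in their spread.

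The mean share of the most abundant listed RNAs was highest on high-fat feed alone, with overlap between groups. The 7SL and ribosomal RNA loci took 59.1 ± 3.17% of reads on listed transcripts with ordinary feed and 67.7 ± 7.79% on high fat (SD, n = 4 each). For resveratrol the value was 61.8 ± 4.03% and for metformin 65.0 ± 3.82%. Single libraries ranged from 56.5 to 63.3%, 60.7 to 78.6%, 58.0 to 66.3% and 61.6 to 69.5% in the same order. High-fat library 4 was the highest, at 78.6%. The members' own share of reads on listed transcripts was 6.77 ± 0.872%, 4.76 ± 1.39%, 6.23 ± 0.645% and 5.38 ± 1.04% in that order of groups. With the 7SL and ribosomal loci left out of the total, the members took 16.5 ± 0.937% with ordinary feed and 14.6 ± 0.948% on high fat, and 16.3 ± 0.445% and 15.3 ± 1.69% with the drugs. The part of the abundant RNAs in the members' levels was not tested. Library totals ran from 17249328 to 31113739 reads, and the totals of the groups overlapped.

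Comparing high fat with ordinary feed asks what the diet changed. In the introns of liver genes most called members were lower: 397 fell and 41 rose, 438 of 2379 in all. Among members with separate groups, those within Igfbp2, Clpx, Fam13a, Pid1 and Gldc fell furthest, and those within Egfr, Nrp1 and Bach2 rose furthest. Each feature was tested with limma on log2(FPKM + 1), adjusted over the 7413 features and called at an adjusted p under 0.05. The share of members called was 18.4%, against 14.6% of all tested features. Lower calls made up 16.7% of members against 11.8% of all features, and higher calls 1.72% against 2.83%. The groups did not overlap for 25.2% of members against 20.9% of all features. The median log2 change was -0.22 over the members, -0.13 over the other features tested and -0.16 over all of them. Without high-fat library 4 these medians were -0.14, -0.06 and -0.09. Members make up part of all features, so the difference between the shares is a description.

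Much of the balance between lower and higher depended on scale. With median-ratio scaling, which moves the median of all features from -0.16 to -0.0015, 278 members were called, 114 higher and 164 lower (59.0% lower, against 90.6% with the deposited values). The median over members was then -0.06 and that over the other features 0.04. Quantile normalization called 260 members, 88 higher and 172 lower, and 721 (9.73%) of all features. Without high-fat library 4, 230 members were called, 34 higher and 196 lower, and with median-ratio scaling as well, 181, with 80 higher. The calls over all features were then 605 (8.16%) and 531 (7.16%). Leaving out ordinary-feed library 2 gave 214 calls of members, ordinary-feed library 3 243, and the second high-fat library 266. Calls over all features were 539 (7.27%), 576 (7.77%) and 722 (9.74%) in the same order. Of the 438 calls, 205 were also made with median-ratio scaling (164 lower and 41 higher), 215 without high-fat library 4, 162 without any 1 of the 16 libraries and 71 (64 lower and 7 higher) under every alternative tried.

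**Figure D2:**
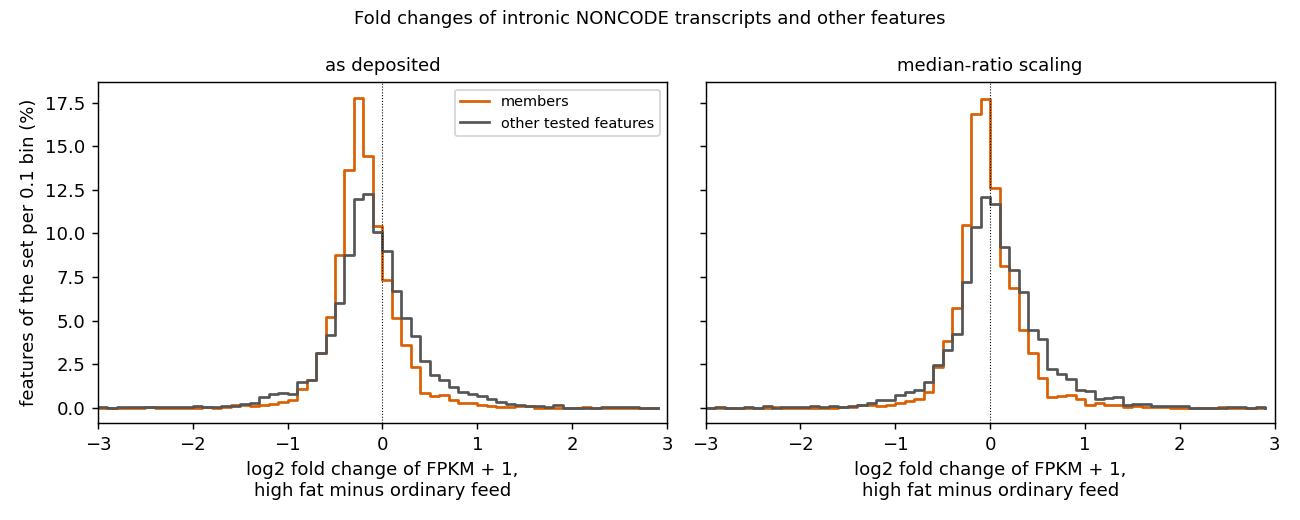
Distribution of the log2 fold change of FPKM + 1, high fat minus ordinary feed, in bins of 0.1, for the 2379 members and the other features tested, as deposited on the left and after median-ratio scaling on the right (2 other features lie beyond the axis in each panel). The members' highest bin holds 17.8% of them as deposited, against 12.3% for the other features. The median of the members is -0.22 as deposited and -0.06 after median-ratio scaling, and that of the other features -0.13 and 0.04.

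Most changes were small. Of the called members 27 were lower and 9 higher by at least 1 on the log2 scale, while 170 were lower by less than 0.5. Called members that fell had a median length of 2276 bases and lay in the first intron in 25.7% of cases. Those that rose were 12.2% in a first intron, and those not called 21.2%. In 374 of the 438 called members the 4 values of one diet lay wholly apart from the 4 of the other. The calls rest on the same values, so this separation is a description and adds no support to them.

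Among members that fell, the one in Igfbp2, which encodes a protein that binds insulin-like growth factors, changed most. NONMMUT001470.2 (chromosome 1, 72832881 to 72834402, in the second intron) stood at 14.1, 18.4, 18.7 and 10.8 FPKM with ordinary feed and at 2.00, 3.93, 1.15 and 1.29 on high fat (log2 change -2.47, SE 0.37, limma adjusted p = 0.00247). Every ordinary-feed library was above every high-fat library. The Clpx member (NONMMUT069603.2, chromosome 9, 65313881 to 65315623), in the gene of a mitochondrial protein-unfolding ATPase, read 11.9, 17.7, 18.6 and 4.45 against 3.34, 2.90, 2.86 and 1.67 FPKM (-1.80, SE 0.34, adjusted p = 0.00652 by limma). Here ordinary-feed library 4 lay much nearer to the high-fat libraries than the other 3 did.

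In Fam13a, a gene that genetic studies tie to body fat distribution, NONMMUT057179.2 (chromosome 6, 58996757 to 58999923) gave 1.85, 4.74, 3.47 and 3.76 FPKM with ordinary feed and 0.850, 0.507, 0.359 and 0.115 on high fat (-1.59, SE 0.25, limma adjusted p = 0.00301). The antisense BB365896 stretch printed above lies near the end of this member. In Pid1, a phosphotyrosine-binding protein that dampens insulin signalling in fat cells, NONMMUT001732.2 (chromosome 1, 84255410 to 84258309) gave 11.1, 22.3, 18.1 and 11.1 against 8.12, 3.92, 4.25 and 2.62 FPKM (-1.57, SE 0.29, limma adjusted p = 0.00598). High-fat library 1 was the highest of its group and still below every ordinary-feed library.

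Gldc held the member with the smallest adjusted p of those named. The gene encodes glycine decarboxylase, which breaks down glycine in liver mitochondria. NONMMUT034407.2 (chromosome 19, 30164751 to 30165769) read 3.30, 2.91, 3.55 and 3.46 FPKM with ordinary feed and 0.649, 0.568, 0.344 and 0.626 on high fat (-1.48, SE 0.12, limma adjusted p = 9.71e-06). Within each diet the 4 values lay close together, and the diets lay wholly apart. Values for the members in Baiap2 (an actin-regulating scaffold, NONMMUT013042.2), Gk (glycerol kinase, NONMMUT073068.2) and Slc16a10 (an aromatic amino acid transporter, NONMMUT005346.2) fell by 1.44, 1.40 and 1.33 on the log2 scale (SE 0.22, 0.32 and 0.27). All 8 of these lowest members kept their call when any 1 library was left out, and 7 did so under every alternative. The second Slc16a10 member, whose small nucleolar RNA stretch is printed above (NONMMUT005347.2), read 4.09, 6.25, 7.64 and 9.30 FPKM with ordinary feed and 4.13, 1.99, 1.84 and 2.54 on high fat (-1.10, SE 0.24, limma adjusted p = 0.0118). Its ranges overlapped through high-fat library 1. The Gk member ends 1 base from an exon, and its call was lost without a filter, and with median-ratio scaling together with leaving out high-fat library 4.

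Among members that rose, that of the Egfr gene, the receptor of epidermal growth factor, changed most. NONMMUT008656.2 (chromosome 11, 16758310 to 16762518, in the first intron) stood at 8.28, 8.79, 7.67 and 17.1 FPKM with ordinary feed and 31.3, 54.7, 63.1 and 47.7 on high fat (2.16, SE 0.58, limma adjusted p = 0.0269). The 2 diets did not overlap, but the call was lost without high-fat library 2, 3 or 4 or ordinary-feed library 1, 2 or 3. The second Egfr member (NONMMUT008657.2, in the next intron, where the antisense Egfros is annotated) read 8.74, 4.5995, 3.76 and 10.4 against 4.54, 33.9, 30.6 and 37.0 FPKM. High-fat library 1 lay inside the ordinary range there, and this member was not called (1.57, SE 0.64, limma adjusted p = 0.107).

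Bach2, a transcriptional repressor best known in lymphocytes, held a member with low ordinary-feed values. NONMMUT046576.2 (chromosome 4, 32251684 to 32254047) read 0.662, 0.198, 1.07 and 1.05 FPKM with ordinary feed and 5.24, 3.18, 4.81 and 1.89 on high fat (1.42, SE 0.27, limma adjusted p = 0.00623). Within Atxn1, which encodes the protein altered in a spinocerebellar ataxia, NONMMUT017329.2 (chromosome 13, 45939169 to 45941038) read 2.02, 1.67, 1.45 and 1.35 against 5.14, 3.30, 7.49 and 3.88 FPKM (1.14, SE 0.20, limma adjusted p = 0.00513). Both members had wholly separate groups and kept their call under every alternative, as did that of the sulfotransferase Sult5a1 (NONMMUT067580.2, 0.96, SE 0.20, limma adjusted p = 0.00884).

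Nrp1, a co-receptor of semaphorins and vascular growth factor, had a member (NONMMUT067813.2) at 2.21, 1.33, 0.987 and 1.13 FPKM with ordinary feed and 7.38, 3.94, 7.78 and 3.69 on high fat (1.44, SE 0.34, limma adjusted p = 0.0153). Among the alternatives tried, that call was lost without a filter. Of the other high members, B3galt1 (a galactosyltransferase, NONMMUT107238.1, 1.23, SE 0.33), Arid5b (a DNA-binding protein, NONMMUT006043.2, 1.04, SE 0.28) and Ghr (the growth hormone receptor, NONMMUT022585.2, 0.94, SE 0.24) lost their calls when single libraries were left out. For B3galt1 these were high-fat libraries 3 and 4 and ordinary-feed libraries 3 and 4. For Arid5b they were high-fat libraries 1 and 3 and ordinary-feed libraries 1 and 3, and for Ghr high-fat library 3 and ordinary-feed library 3. The Ghr member fills nearly its whole short intron, with 31 bases on one side and 2 on the other to the next exon, so reads across the splice site can reach it.

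**Figure D3:**
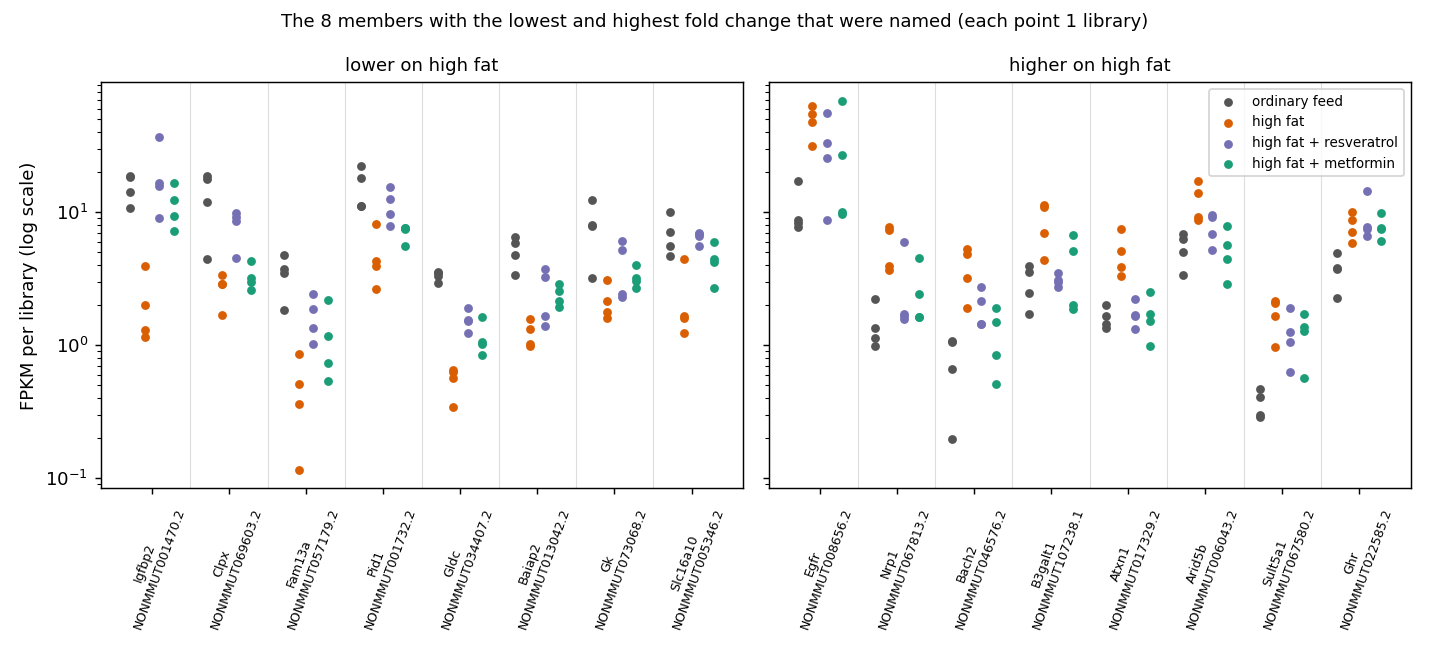
FPKM in each library (log axis, each point 1 library, colour by group) of the 8 called members with the lowest log2 change on high fat (left) and the 8 with the highest (right), among members whose ordinary-feed and high-fat values do not overlap. On the left the high-fat points lie lowest, as for Gldc at 0.344 to 0.649 FPKM, and on the right highest, as for Egfr at 31.3 to 63.1 FPKM.

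Called members of the same host had the same direction with the values as deposited. Of 292 hosts with a called member, 267 had lower members and 25 higher, and none had both. With median-ratio scaling Nfia had 3 lower and 1 higher. That scaling was read for selected hosts, and a count of hosts with both directions over all hosts is not given for it. Counting all members, called or not, 40 of the 76 hosts with at least 5 members had every one below 0 and 7 had none below 0. Of all 2379 members 1849 were below 0 as deposited, so the host counts partly reflect that shared shift. Median-ratio scaling moves the median over members from -0.22 to -0.06, and the host counts are not given for it. All 72 hosts with at least 2 called members had them in 1 direction as deposited, where 397 of the 438 called members were lower. Over 4461 pairs of non-overlapping members within 443 hosts the median absolute difference in log2 change was 0.15, against 0.27 for pairs in different hosts. Neighbouring members come from the same libraries and may share precursor RNA, which was not tested, so the pairs are not independent and no test is given. With 1 member per host gene, the share of members called was 19.3%. No share over all features reduced in the same way is given here, so this value cannot be set against the 14.6% of all features.

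The hosts with the most members were mostly not called. Zbtb20, a transcriptional repressor of the liver, held 42 members over 685.0 kb and none was called (median change -0.07, from -0.47 to 0.65). Their sum was 81.1 ± 6.81 FPKM with ordinary feed and 80.8 ± 14.3 on high fat (SD, n = 4 each). Klf12, a zinc-finger transcription factor, held 19 and Sgms2, a sphingomyelin synthase, 17, none called, with median changes of -0.25 and 0.20. Naaladl2 held 38 members in a single intron over 140.0 kb, of which 36 were above 0 and 1 was called higher. Larp1b, an RNA-binding protein gene, held 16, all below 0 and 1 called lower. With median-ratio scaling 7 members were higher in Naaladl2, 5 in Sgms2 and 1 each in Zbtb20 and Klf12, and none was called in Larp1b. The medians over Zbtb20 and Klf12 then stood at 0.10 and -0.09.

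Tacc1, a gene of a coiled-coil protein of the centrosome and spindle, was the host among these with most calls. Its 15 members lay in 1 intron over 31.7 kb, all were above 0 (median 0.60), and 7 rose. Their summed level was 15.8, 22.1, 28.8 and 29.3 FPKM with ordinary feed and 33.2, 40.6, 49.5 and 53.5 on high fat, with no overlap. Without high-fat library 4 the number of calls was 2, and with median-ratio scaling it was 10.

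Some hosts were singled out after their values had been seen, because at least 6 members were lower or at least 3 higher. In Ptprd, a receptor protein tyrosine phosphatase, 8 of 12 members fell (median -0.73), 8 with median-ratio scaling and 6 without high-fat library 4. In Rapgef2, an activator of the small GTPase Rap, 8 of 11 fell (median -0.53), and in Sox5, a transcription factor of the SRY-related family, 7 of 10 (median -0.61). Median-ratio scaling left 4 calls in each of these. The summed Rapgef2 level was 24.2, 29.6, 23.8 and 26.2 FPKM with ordinary feed and 17.9, 14.8, 15.5 and 10.7 on high fat, without overlap. Lower members also numbered 6 of 8 in Foxp1 and in Sik3 and 6 of 7 in Arih1 and in Fbxl17. Foxp1 is a forkhead transcription factor, Sik3 a salt-inducible kinase, Arih1 a ubiquitin ligase and Fbxl17 an F-box protein of such ligases. With median-ratio scaling the 4 counts were 3, 1, 1 and 4. Nfia, a nuclear factor, did not reach those numbers and is given with its printed stretch. There 5 of 8 members fell, and the rest were above 0 (up to 0.42). Among those that fell was NONMMUT048227.2, which holds the Gm19417 promoter window printed above (7.48, 10.7, 12.8 and 12.3 FPKM against 7.64, 4.86, 6.41 and 5.70; -0.71, SE 0.18, limma adjusted p = 0.0219). The ranges of this member overlapped.

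In the other direction, 4 of 6 members of Bach2, 3 of 8 of B3galt1 and 3 of 5 of Atxn1 rose. The Bach2 sum was 2.78, 2.87, 5.08 and 5.53 FPKM with ordinary feed and 13.2, 13.6, 14.2 and 9.90 on high fat. Its 4 calls held with each scaling and without any 1 library. Those of B3galt1 numbered 0 without high-fat library 4, and those of Atxn1 1.

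**Figure D4:**
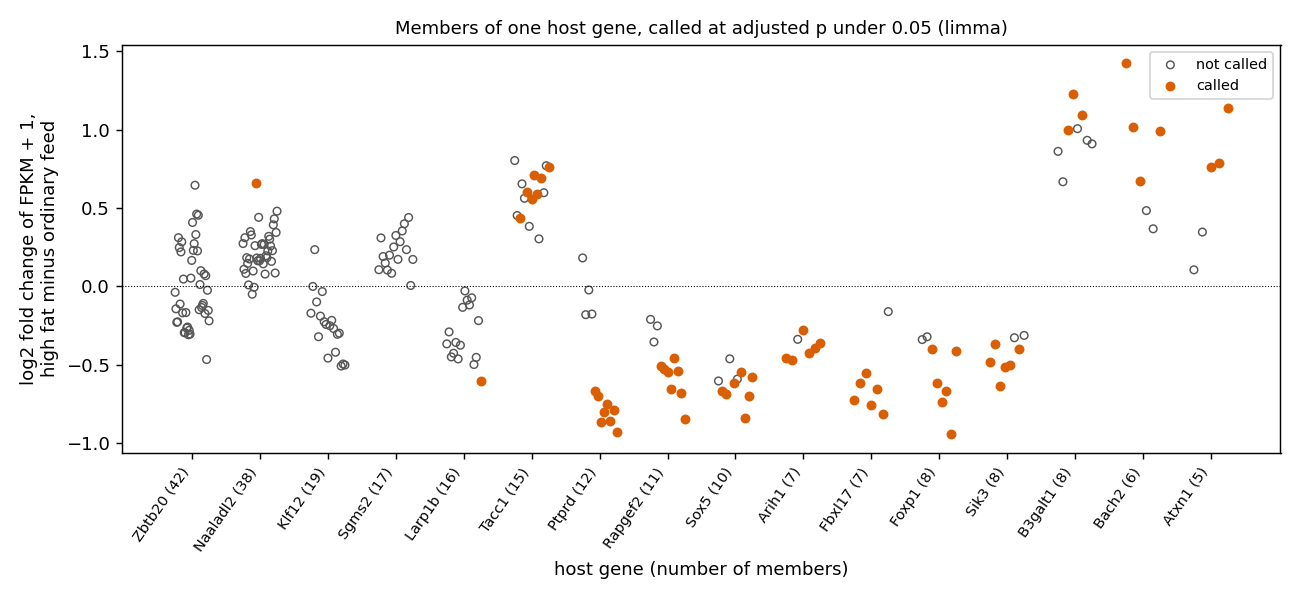
Log2 fold change of FPKM + 1, high fat minus ordinary feed, of every member in 16 host genes (open, not called; filled, called at an adjusted p under 0.05): the 6 hosts with the most members on the left, then hosts chosen after seeing the values. Members of Tacc1 all lie above 0 and those of Rapgef2 and Sox5 all below, while Zbtb20 spreads on both sides from -0.47 to 0.65.

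Introns can be set against exons of the same gene. In 430 hosts that also held an exonic NONCODE feature tested, the median over hosts was -0.23 for the members and -0.21 for the exonic features, and the members lay lower in 236 hosts (54.9%), with a median difference of -0.04. Both medians were below 0 in 269 hosts and of opposite sign in 115. Across these hosts the 2 medians had a Pearson correlation of 0.397 and a Spearman correlation of 0.328, given as a description, since hosts share the libraries and their scale. By library, the median log2 ratio of intronic to exonic level within a host was -0.10 to -0.07 with ordinary feed and -0.16 to -0.06 on high fat. These ranges overlapped.

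**Figure D5:**
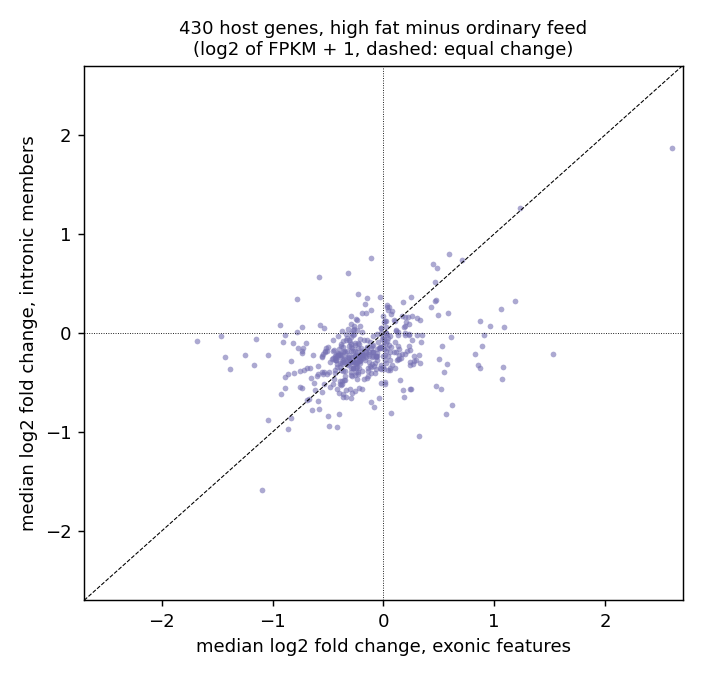
Median log2 fold change of FPKM + 1, high fat minus ordinary feed, of the intronic members (vertical axis) against that of exonic NONCODE features (horizontal axis) in 430 host genes, each point 1 gene, dashed line for equal change. Most points (269) lie below 0 on both axes, and 236 of 430 lie below the dashed line.

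Known liver pathways were read through members in their genes, from 13 lists of host genes. Few list genes held a member, and single members were called. Over all features 11.8% were called lower and 2.83% higher. The lists are too small to be set against these shares, so their counts are a description. For growth factor and cytokine receptors, 2 of 15 members rose (Egfr and Ghr), with a list median of -0.09 against -0.16 over all features. With median-ratio scaling the list median was 0.04 and 5 were higher. The 4 Ghr members were all above 0, and 4 were called with median-ratio scaling. Among plasma protein genes, the member in Fn1, which encodes fibronectin, rose. NONMMUT001424.2 read 6.70, 6.26, 5.13 and 5.22 FPKM with ordinary feed and 8.57, 9.67, 13.5 and 9.09 on high fat (0.70, SE 0.22, limma adjusted p = 0.0460). The diets did not overlap, but the call was lost when any 1 ordinary-feed library, high-fat library 2, 3 or 4, resveratrol library 2 or metformin library 1 or 4 was left out.

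In the clock list 2 of 6 members fell, too few members to be set against the 11.8% of all features called lower. Both lay in the same host, Clock, a core activator of the circadian oscillator. NONMMUT052836.2 read 3.07, 4.72, 3.68 and 2.86 against 1.54, 1.85, 1.72 and 1.17 FPKM (-0.82, SE 0.18, limma adjusted p = 0.0116), with separate groups. The list median was -0.48, and 1 call remained with median-ratio scaling or without high-fat library 4. For fatty acid oxidation 1 of 5 fell, a member in Ppara, the fasting-responsive nuclear receptor (NONMMUT024512.2, -0.71, limma adjusted p = 0.0419), a call not made without high-fat library 4 or with median-ratio scaling. The more abundant Ppara member (NONMMUT024511.2) had -0.58 (limma adjusted p = 0.0585).

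Among AMP-activated kinase and sirtuin genes, the member in Prkaa2, a catalytic subunit of that kinase (NONMMUT048447.2), had 0.60 (SE 0.20, limma adjusted p = 0.0536). The member in Sirt1, a deacetylase (NONMMUT005902.2), had -0.03. The member in Stk11, which activates the kinase (NONMMUT006389.2), had -0.41 (SE 0.13, limma adjusted p = 0.0526). None of these 3 was called. Without high-fat library 4 the Prkaa2 member was called higher and the Stk11 member lower, the latter also without resveratrol library 2 or 4. With median-ratio scaling or quantile normalization the Prkaa2 member was called higher. In glucose and insulin signalling 1 of 5 fell, that of Igfbp2. The 3 members of Pik3r1, a regulatory subunit of the insulin-responsive lipid kinase, had 0.32 to 0.33 and were not called. With median-ratio scaling 3 members of this list were higher.

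Of the 25 members reported for chromatin and splicing genes 1 fell (list median -0.22), in the acetyltransferase Crebbp. This list too is too small to be set against the 11.8% of all features called lower. NONMMUT025235.2 stood at 2.18, 2.22, 2.04 and 1.79 FPKM with ordinary feed against 1.56, 1.30, 1.69 and 0.953 (-0.37, SE 0.11, limma adjusted p = 0.0358). The member was chosen after its values were seen. The diets did not overlap, and the call was not made with median-ratio scaling or without high-fat library 4. No member was called in fatty acid and triglyceride synthesis (6 members, median -0.33), cholesterol (2, 0.20), liver transcription factors (5, -0.27), bile acid and drug metabolism (1) and amino acid metabolism (2). For example, the Dgat2 member (NONMMUT062890.2) had -0.22 (SE 0.27), that of Elovl6 0.62 (SE 0.34) and that of Por 0.12 (SE 0.35). The remaining list, markers of other liver cells, held none.

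Comparing resveratrol with high fat alone asks what the drug changed on that diet. Within introns 4 members were called (0.168%, against 0.0809% of all features), 3 higher and 1 lower. The Igfbp2 member read 36.9, 16.6, 9.09 and 15.8 FPKM with resveratrol against 2.00, 3.93, 1.15 and 1.29 without (2.65, SE 0.37, limma adjusted p = 0.0139). All 4 resveratrol libraries lay above the high-fat ones, with library 1 highest. The Gldc member read 1.90, 1.51, 1.23 and 1.54 against 0.649, 0.568, 0.344 and 0.626 FPKM (0.72, SE 0.12, limma adjusted p = 0.0314). A Sox5 member (NONMMUT059409.2, chromosome 6, 144185984 to 144189489) read 1.95, 2.18, 1.84 and 1.48 against 1.02, 0.825, 0.724 and 0.832 (0.63, SE 0.11, limma adjusted p = 0.0395). These groups too lay apart.

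Lower with resveratrol was 1 of the Tacc1 members. NONMMUT130078.1 (chromosome 8, 25224918 to 25225781) read 0.985, 1.01, 1.33 and 1.26 FPKM against 2.50, 2.64, 3.34 and 2.69 on high fat alone (-0.82, SE 0.13, limma adjusted p = 0.0264). The number of called members was 0 without high-fat library 3, high-fat library 4 or resveratrol library 2, and 1 without ordinary-feed library 2 or resveratrol library 1. It was 11 without high-fat library 1 and 10 without resveratrol library 4, against 16 (0.216%) and 57 (0.769%) of all features. With median-ratio scaling 1 member was higher and 2 were lower, and with quantile normalization 1 and 3. The median change over members was 0.14 and over all features 0.13. Leaving out high-fat library 4 gave 0.068 and 0.057, and median-ratio scaling 0.018 and -0.0038. Groups did not overlap for 264 members (11.1%, against 7.93% of all features), and 495 members had an unadjusted p under 0.05, as did 1200 of all 7413 features.

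For metformin against high fat alone, the same Tacc1 member was the only call, at 1.13, 1.12, 0.703 and 1.04 FPKM (-0.93, SE 0.13, limma adjusted p = 0.00959). It made up 0.042% of members, against 0.027% of all features. The metformin libraries all lay below the high-fat ones. The call was lost without high-fat library 3 or metformin library 3, and leaving out high-fat library 1, 2 or 4 gave 5, 3 and 2 calls, and leaving out resveratrol library 1 gave 2. The Igfbp2 member, at 12.3, 7.16, 16.6 and 9.28 FPKM, did not pass (2.02, SE 0.37, limma adjusted p = 0.0767), although the groups lay apart. Groups did not overlap for 3.32% of members, against 3.45% of all features. The median change was 0.07 over members and over all features, and without high-fat library 4 it was -0.0080 and -0.0045. An unadjusted p under 0.05 was found for 181 members and 554 of all 7413 features.

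Between resveratrol and metformin limma called 0 of 2379 members and 0.0% of all features, while 161 members and 471 of all features had an unadjusted p under 0.05. Leaving out high-fat library 1 gave 1 call. Members that differed between the high-fat and ordinary diets can be read alongside in the drug groups, which share the high-fat or ordinary libraries with the first comparison. Over the 397 lower members the median of mean levels was 2.33 FPKM with ordinary feed, 1.34 on high fat, 1.86 with resveratrol and 1.62 with metformin. Over the 41 higher members it was 1.21, 2.91, 1.41 and 1.56. Since these members were picked on the high-fat values, the levels are a description.

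Against ordinary feed, 2 members were called with resveratrol (0.0841%, against 0.283% of all features) and 5 with metformin (0.210%, against 0.297%). The resveratrol count was 5 without high-fat library 4 and 0 without ordinary-feed library 1 or 3 or resveratrol library 4. It was 1 without ordinary-feed library 2, resveratrol library 1 or metformin library 4. The metformin count was 103 without high-fat library 4, 41 without resveratrol library 4, 13 without ordinary-feed library 4 and 1 without metformin library 2. It was 2 or 3 without each of 10 others. The matching counts over all features are not given here, so these shifts cannot be read as particular to the members. Gldc was lower with both drugs than with ordinary feed, by -0.76 with resveratrol (limma adjusted p = 0.0234) and -1.02 with metformin (limma adjusted p = 0.00124, SE 0.12 for both). Another Sox5 member, NONMMUT150756.1, read 1.13, 1.25, 0.861 and 1.30 FPKM with resveratrol and 2.54, 3.26, 2.28 and 2.37 with ordinary feed (-0.76, SE 0.14, limma adjusted p = 0.0332). On high fat alone it read 0.967, 0.704, 1.31 and 1.09. The values of the Sox5 members thus differed: NONMMUT059409.2 with resveratrol overlapped ordinary feed and NONMMUT150756.1 did not. Whether these members differ in their response was not tested.

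With metformin, lower members than with ordinary feed lay also in Clock, Bace1, Ube2k and Rbfox2, chosen here because they make up the whole count. The Ube2k member (NONMMUT052506.2, a ubiquitin-conjugating enzyme gene) read 2.03, 2.19, 2.17 and 2.55 FPKM with ordinary feed, 1.15, 0.943, 0.998 and 1.11 on high fat, 1.73, 1.53, 1.88 and 1.67 with resveratrol and 1.35, 1.16, 1.02 and 1.25 with metformin. The 4 ordinary-feed values were the highest and each other group's values overlapped no ordinary value. Metformin differed from ordinary feed by -0.56 (SE 0.08, limma adjusted p = 0.0121). The Rbfox2 member (NONMMUT024077.2, in the gene of a splicing regulator) read 2.81, 2.79, 3.21 and 2.65 with ordinary feed and 2.03, 1.86, 1.54 and 1.34 with metformin (-0.53, SE 0.10, limma adjusted p = 0.0444). The Bace1 member (NONMMUT068925.2, the beta-secretase gene) changed by -0.62 (limma adjusted p = 0.0480) and the Clock member by -0.90 (limma adjusted p = 0.0491, NONMMUT052836.2).

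Across all 4 groups, the F-test of the same fit called 87 members (3.66%, against 3.13% of all features). Without ordinary-feed library 1, 2 or 3 it called 51, 15 and 20, and without high-fat library 2 or 3, 34 and 30. Without resveratrol library 1 it called 45 and without metformin library 3, 57. Counts over all features under these settings are not given here, so the drops cannot be read as particular to the members.

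The most abundant members did not differ between diets by this test, apart from Egfr. Errfi1, an inhibitor of the epidermal growth factor receptor, held the highest (NONMMUT050739.2, chromosome 4, 150861836 to 150862944), at 55.9, 129, 107 and 136 FPKM with ordinary feed and 90.7, 85.6, 99.4 and 31.7 on high fat (-0.52, SE 0.36, limma adjusted p = 0.327). The groups overlapped, and ordinary-feed library 1 and high-fat library 4 were the low ones. With resveratrol it read 97.9, 98.5, 116 and 101 FPKM, and with metformin 99.0, 100.2, 54.2 and 66.7. The Zbtb16 member (NONMMUT069017.2), in the gene of a zinc-finger transcription factor, had 27.4 ± 13.0 FPKM with ordinary feed and 8.72 ± 6.82 on high fat (SD, n = 4 each; -1.62, SE 0.60, limma adjusted p = 0.0809). Its call was made when high-fat library 1 or ordinary-feed library 1 was left out. Ghr (NONMMUT022590.2), Adk (NONMMUT019891.2, adenosine kinase), Mtss1 (NONMMUT023601.2) and Fam214a (NONMMUT070041.2) had changes of 0.56, -0.84, 0.20 and 0.20, none called. The Fam214a member starts 1 base from an exon. Of the other 2, the Pitpna member overlaps a processed pseudogene and the Zc3h7a member an annotated microRNA gene, and without more information their reads cannot be assigned to one or the other.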

How the data were processed

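Liver total RNA of 16 libraries was extracted with Trizol and prepared with a TruSeq RNA kit, per the labels' protocols. The authors deposited 1 table per library with FPKM values for the same 51024 transcripts. The submitters' processing notes name Bowtie 0.12.2, Cufflinks 2.1.1 and GRCm38, and no source used here gives the annotation, strand or filters. Replicates were numbered in sample order. FPKM values were whole multiples of 1 read step per library (tolerance 0.05 of a read), which gave 17249328 to 31113739 reads per library. They were summed over Ensembl genes, leaving 49988 features. Features were placed against GENCODE M21 by position.

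The 7413 features at 1 FPKM in at least 4 libraries were fitted with limma 3.58.1 in R 4.3.3 (mean-variance trend, log2(FPKM + 1), 1 fit, 12 residual degrees of freedom, Benjamini-Hochberg). A fold change on this scale understates changes of low features. The fit was run on simulated data with independent noise for each feature. Those data held no shift shared by the features of a library, so that run does not bear on such shifts. Alternatives were a pseudocount of 0.1, no filter, median-ratio scaling, quantile normalization, pairwise fits and each library left out. Members and lists were chosen with earlier results of these data known. Named members were up to 8 called with the lowest and 8 with the highest change per main comparison, with non-overlapping groups and at most 1 per host, the 10 most abundant, the 6 hosts with most members and up to 4 per list. Of the members the sequence rule asked for, a reference sequence used here covers that in Fam13a. The other 4 printed were chosen after their values were seen. Some host genes of 3 lists (plasma proteins, AMP-activated kinase and sirtuins, chromatin and splicing) are not reported here, and counts for these lists cover the members reported.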

Additional observations from a re-analysis of the deposited data

Results flagged for a closer look

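In 256 groups of 4 values, from the named members and library levels, 13 had 1 library far from the other 3, and chance gives about 1 in 20. High-fat library 4 was low for Pitpna (NONMMUT085480.1, 26.1 FPKM, others 51.9 to 55.9) and Lpin2 (NONMMUT030430.2, 1.71, others 3.11 to 3.27) and high for Zc3h7a (NONMMUT025494.2, 145, others 22.9 to 41.5). High-fat library 1 was high for Slc16a10 (NONMMUT005346.2) at 4.44 FPKM, others 1.24 to 1.65. Ordinary-feed library 1 was low for Zbtb16 (8.03, others 32.4 to 35.0). Ordinary-feed library 2 was high for Ppargc1b (4.08, others 2.32 to 2.44), and library 4 for Egfr NONMMUT008656.2 (17.1, others 7.67 to 8.79) and Ghr NONMMUT022590.2 (19.997, others 9.41 to 10.3). With resveratrol, library 2 was high for Ghr NONMMUT022585.2 (14.3, others 6.56 to 7.69), library 3 for Nrp1 (6.00, others 1.57 to 1.71) and library 4 for Elovl6 (3.18, others 1.03 to 1.29) and Ppargc1b (3.90, others 1.90 to 2.11). Metformin library 3 was low for Pid1 (5.53, others 7.49 to 7.65).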

How the results depend on the processing

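The count of members called between high fat and ordinary feed was 438, and 392 with a pseudocount of 0.1, 278 with median-ratio scaling, 260 with quantile normalization, 181 with median-ratio scaling once high-fat library 4 was left out, 143 with 2 groups fitted at a time and 85 without a filter. Leaving out each library in turn gave 214 (without ordinary-feed library 2) to 533 (without high-fat library 1). Libraries whose absence moved it by over 1.5 times were ordinary-feed 2 and 3 (243) and high-fat 2 (266) and 4 (230). For resveratrol against high fat the count of 4 became 0 without a filter or in pairwise fits and 2 with median-ratio scaling less high-fat library 4, and 0 to 11 without single libraries. Over all features, the count of 6 became 1, 4 and 6 in those settings, and 1 to 57 without single libraries. For metformin against high fat, 1 became 2 with median-ratio scaling or quantile normalization, 3 with that scaling less high-fat library 4 and 0 in pairwise fits, and 0 to 5 without single libraries. Over all features, 2 became 8, 7, 10 and 3 in the same order, and 1 to 9 without single libraries. One member per host gave a share of 0.0%, and no matching share over all features is given here. Resveratrol against metformin stayed at 0 but for 1 without high-fat library 1 (range 0 to 1). Resveratrol against ordinary feed, 2 as deposited, gave 0 with a pseudocount of 0.1 or no filter, 7 with median-ratio scaling or quantile normalization, 12 with median-ratio scaling and without high-fat library 4, 1 with 2 groups at a time and 0 to 5 without single libraries. Metformin against ordinary feed, 5 as deposited, gave 2, 1, 15, 15, 46 and 1 in the same order of settings, and 1 to 103 without single libraries, the last without high-fat library 4. The F-test count of 87 became 8 without a filter and 50 with median-ratio scaling and without high-fat library 4, and 15 to 104 without single libraries. For each drug against ordinary feed and for the F-test, counts over all features under these settings are not given here. The cause of these shifts was not tested. The share of listed reads was 16.5%, 14.6%, 16.3% and 15.3% (ordinary feed, high fat, resveratrol, metformin) without the 7SL and ribosomal loci, and 8.51%, 6.06%, 7.87% and 6.88% over all 8114 transcripts. No named member reversed. No paired analysis was possible because the labels give no replicate numbers.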
